A study of Mus musculus with 2 samples.

Results

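The genes described here encode the subunits of the mitochondrial respiratory chain, complexes I to IV. They were chosen by gene symbol alone: symbols starting with Nduf (a, b, c, s and v series), Sdha to Sdhd, and symbols starting with Uqcr, Cox4, Cox5, Cox6, Cox7 or Cox8. The rule took 73 of the 18193 genes that had a probe set with 1 symbol on the array, with 148 probe sets. Of these, 65 were counted as structural subunits by symbol alone: 36 of complex I, 4 of complex II, 8 of complex III and 17 of complex IV. The other 8 are Ndufaf genes, assembly factors of complex I that the letters of the rule also take, and they are described apart from the subunits.

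RNA came from RAW264.7 cells, a mouse macrophage-like line, that had been made to express murine LXRalpha stably by chemical transfection. All cells therefore carried the introduced receptor, and the labels do not say whether they were 1 clone or a pool. The control was DMSO for 24 h. The other condition was the LXR ligand GW3965 at 1 µM and the RXR ligand LG268 at 100 nM, given together for 24 h, so neither ligand was measured alone. Each condition had 1 Affymetrix array, so no p-value could be computed and every difference below is a difference between these 2 arrays.

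Respiration passes electrons from NADH (complex I) and succinate (complex II) through ubiquinone to complex III, cytochrome c and complex IV, which reduces oxygen. Complexes I, III and IV pump protons, and ATP synthase uses the gradient. Most subunits are encoded in the nucleus and imported, a few are encoded by mitochondrial DNA, and macrophages lower respiration and raise glycolysis when they are activated by bacterial products.

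The signals are MAS5 values on a linear scale. Both arrays had a 2% trimmed mean of 2500.0 and the median over all probe sets was 282.5 (DMSO) and 272.1 (ligands). A gene was represented by its brightest probe set, and signals below 406.5, the median of the 34945 probe sets with 1 symbol, were set to that floor. The 9857 genes that exceeded the floor with DMSO, with the ligands or with both are called measured. The error of a probe set's log2 ratio (ligands over DMSO), estimated from the disagreement of the 2 brightest probe sets of a gene, was 0.26 (SD) over 4480 genes and 0.16 over the 37 respiratory chain genes that allowed the estimate. It covers measurement within these arrays, not variation between cultures. Abca1, the cholesterol exporter known as a target of LXR, had signals of 2989 (DMSO) and 81159 (ligands), and its log2 ratio was 4.76. All 10 macrophage markers were measured, no fibroblast marker of 8 was, and of 7 lymphoid markers on the array 1 was (Cd8a, 411.1 and 181.8).

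The respiratory chain genes had high signals that were nearly level between the arrays. A signal depends on the probes as well as on the transcript, so signals are used here to say how far a gene stood above the floor and not to rank genes. 69 of the 73 were measured, 61 subunits and all 8 Ndufaf factors. Of the 61 measured subunits, 54 had a brighter signal above 10256, the 90th percentile of the probe sets with 1 symbol, a mark passed by 27.1% of all measured genes. None of the 59 subunits that exceeded the floor on each array was 1.5-fold apart in either direction. The other 2 measured subunits, Cox4i2 and Ndufa4l2, were below the floor on 1 array, so their ratios are only bounds. With the floor at the 25th percentile their log2 ratios were 2.40 and -0.97. Over all measured genes, differences of 2-fold or more were seen in 1.59% (higher) and 0.517% (lower). Differences of 1.5-fold or more were seen in 5.5% (higher) and 3.8% (lower).

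At 1.2-fold, which is about the size of the probe set error, 5 of 61 subunits were higher and 1 was lower, against 18.1% and 19% of all measured genes. The other 55, or 90.2%, lay within 1.2-fold, as did 62.9% of all measured genes. Bright genes in general lie closer to a ratio of 1. Among the 2671 measured genes above the 90th percentile of signal 71.4% lay within 1.2-fold, and of the 54 subunits as bright, 49 did (90.7%). The SD across genes of the log2 ratio was 0.15 for the subunits and 0.40 for all measured genes. RNA came from whole cultures, so a change in the share of cells carrying a transcript and a change in RNA per cell cannot be told apart.

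**Figure D1:**
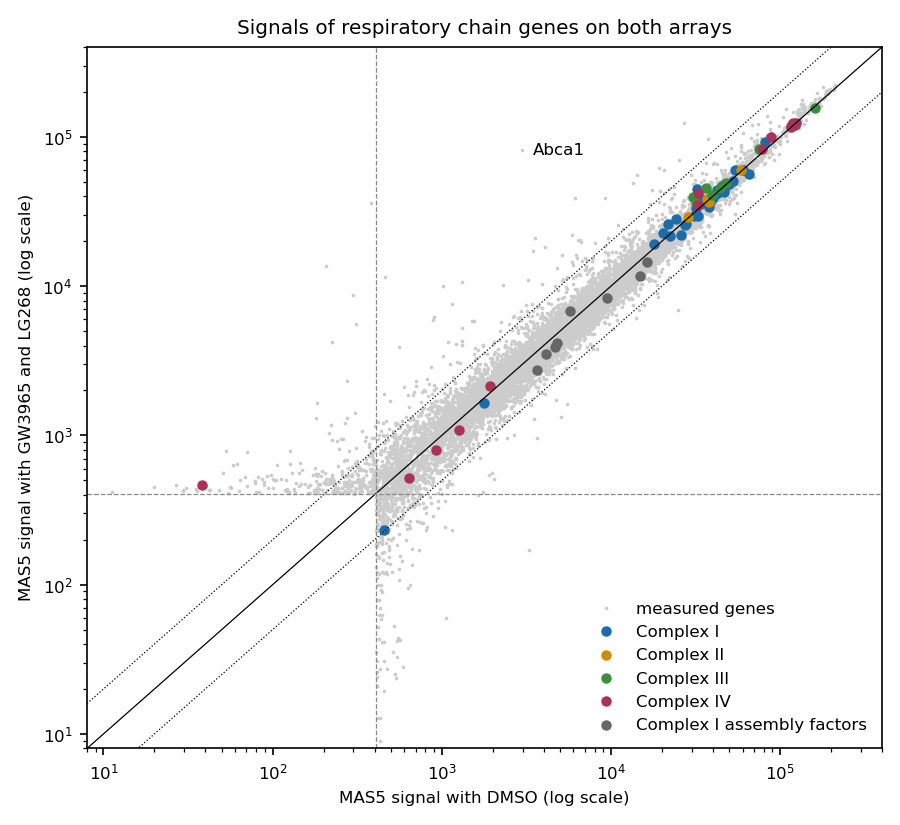
MAS5 signal with the ligands against signal with DMSO for the 9857 measured genes (grey) and the 69 measured respiratory chain genes (coloured by complex), both axes logarithmic; the solid line marks equal signals, dotted lines 2-fold, dashed lines the floor of 406.5. Most subunits sit at the bright end close to the line of equal signals, while Abca1 lies far above it; Cox4i2 and Ndufa4l2 are below the floor on 1 array.

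The side of 0 depended on the scaling. The median log2 ratio of the 61 subunits was 0.03, and 35 were above 0, 57.4%, where 46.1% of all measured genes were. With quantile normalization the median was -0.02 and 28 subunits were above 0. Under the alternatives the median of complex I ranged from -0.06 to 0.01, that of complex II from 0.01 to 0.07, that of complex III from 0.02 to 0.15 and that of complex IV from -0.04 to 0.08. Only complexes II and III kept 1 sign.

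Complex I takes electrons from NADH and is the largest complex. Of its 36 genes that had a probe set with 1 symbol, 35 were measured. Of these, 16 (45.7%) were above and 19 below a ratio of 1, where 46.1% of all measured genes were above. The median log2 ratio was -0.02, with a range from -0.25 to 0.48. Ndufa11 and Ndufs6 had only probe sets that list several symbols and were not analysed. The 29 measured accessory subunits and 6 measured core subunits, which carry the flavin and iron-sulphur clusters or the quinone site, had medians of -0.02 and -0.01.

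Among the core subunits, those of the NADH-oxidising tip were level. Ndufv1, which binds the flavin, had 30879 with DMSO and 29422 with the ligands. Ndufv2 had 45560 and 46661, and Ndufs1, the largest iron-sulphur subunit, had 27661 and 26268. Their log2 ratios were -0.07, 0.03 and -0.07, all inside the probe set error. The core subunits nearer the quinone site ran from -0.06 to 0.27, near or within the probe set error of 0.26 over all genes. Whether they spread more than those of the tip was not tested. Ndufs7 had 38325 and 36813, a log2 ratio of -0.06, and its other probe set had 0.09. Ndufs3 had 21750 and 26142 (log2 ratio 0.27), from its only probe set. Ndufs8 had 80885 and 92401, a log2 ratio of 0.19, or 0.06 with quantile normalization. Each of the 6 Ndufs8 probe sets was higher with the ligands, from 0.15 to 0.73 on the log2 scale, so the size of the difference depended on the probe set.

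The highest complex I symbol was Ndufa4, with 32157 and 44733, 1.39-fold higher. This protein was first listed with complex I and is now known as a subunit of complex IV. Its single probe set gives no second reading. Ndufa6, an accessory subunit, had 24141 and 28310 (log2 ratio 0.23). At the other end, Ndufa5 had 26072 and 21977, a log2 ratio of -0.25, and its other probe set had -0.26. Ndufb11, a membrane-arm subunit encoded on the X chromosome, had 65817 and 56744 (-0.21), but its other probe sets had -0.04 and 0.00. Ndufs5 had 37926 and 34055 (-0.16). So the Ndufa5 difference was repeated by a further probe set and that of Ndufb11 was not.

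Complex II, succinate dehydrogenase, links the chain to the citric acid cycle and is wholly encoded in the nucleus. Its 4 genes had the narrowest range of the complexes, but it also had the fewest genes, and a range tends to widen with their number. Sdha, the flavoprotein, had 38083 with DMSO and 36787 with the ligands. Sdhb, the iron-sulphur subunit, had 58392 and 60381. The membrane anchors Sdhc and Sdhd had 28605 and 29270, and 36985 and 38495. The log2 ratios ran from -0.05 for Sdha to 0.06 for Sdhd, with a median of 0.04. Dimmer probe sets of Sdha and Sdhd had the other sign, 0.14 and -0.19.

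Complex III passes electrons from ubiquinol to cytochrome c. 7 of the 8 genes that the rule took were above a ratio of 1, where 46.1% of all measured genes were. The median log2 ratio was 0.10, or 0.02 with quantile normalization, where Uqcrc2 and Uqcrfs1 had -0.0009 and -0.003. Cytochrome c1 (Cyc1), also part of complex III but outside the rule, had 54915 and 53322 (log2 ratio -0.04). Uqcr11, the smallest subunit, had 30665 and 39761, 1.30-fold higher. Uqcrc1, a core subunit facing the matrix, had 36399 and 45165, 1.24-fold higher. Each of these rests on 1 probe set. Uqcrc2, the partner of Uqcrc1 in the complex, was level at 44265 and 45422, and so was Uqcrfs1, the Rieske iron-sulphur protein, at 48122 and 49185. Uqcr10 had a log2 ratio of 0.18 and a dimmer probe set at -0.19. Uqcrb, a small subunit near the quinone site, was at 160229 and 156542 (log2 ratio -0.03).

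Complex IV, cytochrome c oxidase, has nuclear subunits with paralogues for particular tissues. Of 17 genes 14 were measured, 9 above and 5 below a ratio of 1, where 46.1% of all measured genes were above. The median log2 ratio was 0.05, or -0.04 with quantile normalization. Cox7b, a general subunit, was not analysed here. The general isoforms were far above the floor on both arrays. Cox4i1 had 115363 with DMSO and 115987 with the ligands, Cox6a1 118619 and 123820, Cox6b1 121889 and 119913, and Cox7a2 124644 and 123630. By the brightest probe set of each, their log2 ratios lay between -0.02 and 0.06. A further probe set of Cox6a1, also far above the floor, had 52260 and 69891 (0.42). Cox8a was higher by its brightest probe set, with 32866 and 42217, 1.28-fold higher. The further probe set of Cox8a above the floor had 0.29 on the log2 scale. Cox5a, which has no tissue paralogue, had 88450 and 100044 (0.18), but its other probe sets had 0.05 and -0.02.

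Of 7 paralogues known from muscle, heart, lung or testis, 3 exceeded the floor on each array. Cox6b2, Cox7b2 and Cox8b were below it on both arrays. Cox4i2, known from lung, was at 38.3 with DMSO and 464.1 with the ligands, at least 1.14-fold higher, since only the ligand signal was above the floor. Cox6a2 had 927.6 and 801.2, Cox7a1 1920 and 2139, and Cox8c 636.9 and 514.5, with log2 ratios of -0.21, 0.16 and -0.31. Cox6a2 and Cox7a1 are the heart and muscle forms, and of 10 muscle markers only Tnni2 was above the floor (2575 and 2445). Cox7c, a general subunit, was represented by a dim probe set (1264 and 1081). Ndufa4l2, a paralogue of Ndufa4 known to respond to hypoxia, was above the floor only with DMSO (455.0 and 232.4), at least 1.12-fold lower. Ndufb4 was below the floor by its only probe set with 1 symbol (109.7 and 160.5). Probe sets that Ndufb4 shares with Ndufb4b and Ndufb4c had 30667 and 26468, and 24480 and 24855, so the dim probe set does not show that Ndufb4 was absent. No level of a gene was taken from the 10 probe sets that list several symbols, at least 1 of them fitting the symbol rule.

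**Figure D2:**
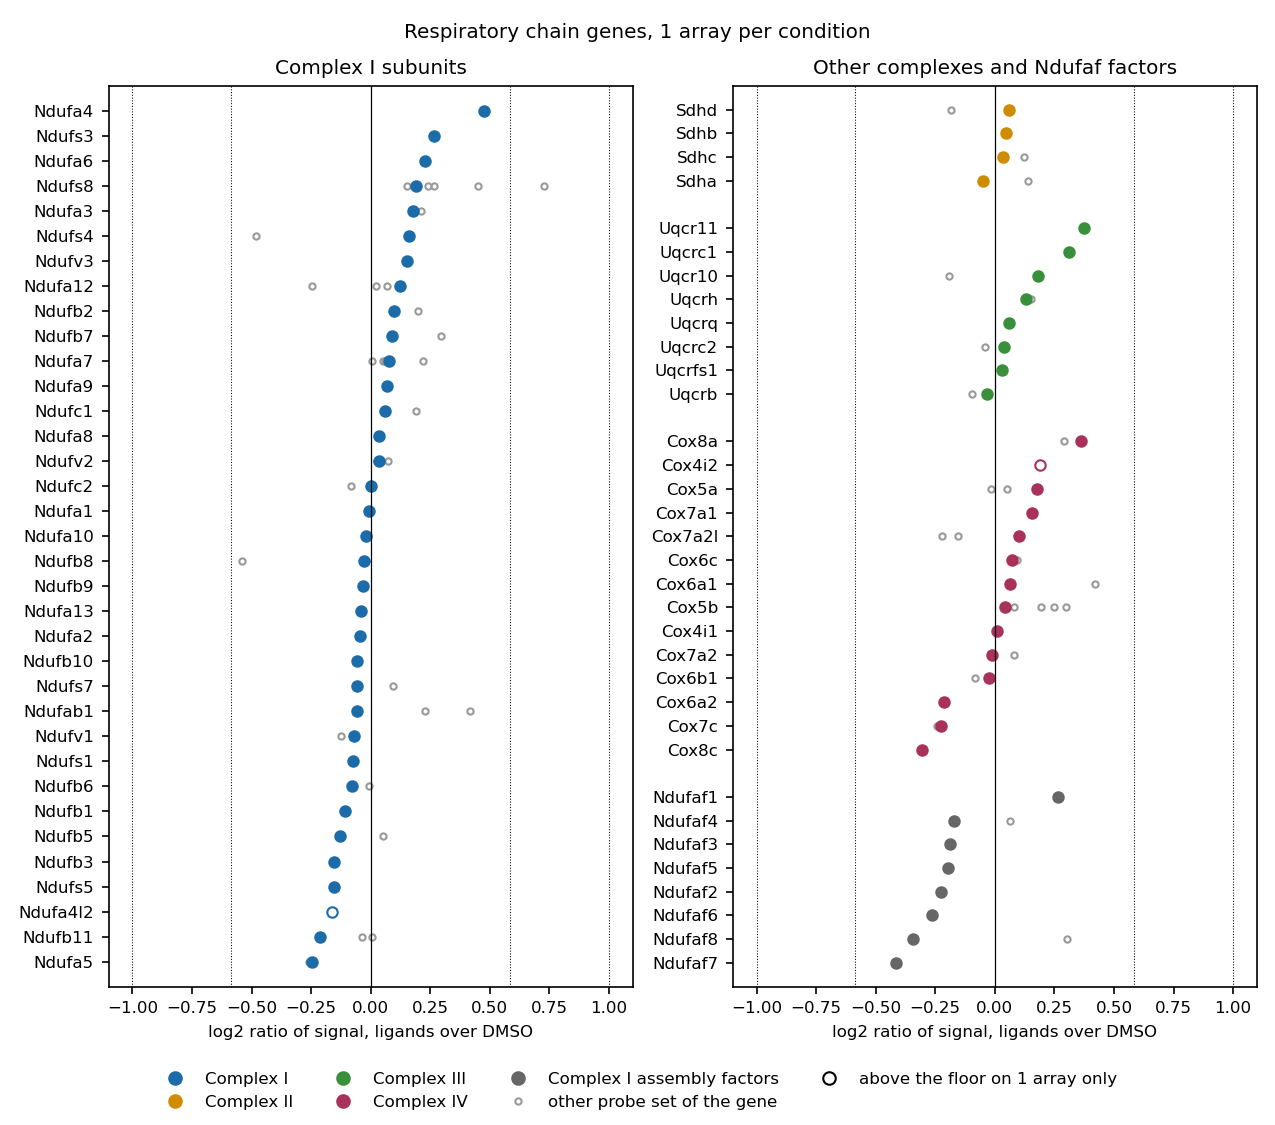
Log2 ratio of signal (ligands over DMSO, x axis) for each of the 69 measured genes, complex I on the left and the other complexes and the Ndufaf factors on the right; large points are the brightest probe set of each gene, small open points its further probe sets that exceeded the floor on each array, large open points genes above the floor on 1 array only, and dotted lines mark 1.5-fold and 2-fold. All large points lie inside the 1.5-fold lines, where the 2 large open points are only bounds, and 7 of the 8 Ndufaf factors lie to the left of 0.

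The Ndufaf assembly factors build complex I and leave it once it is mature. Of the 8, 7 were lower with the ligands, with a median log2 ratio of -0.21, and 3 were at least 1.2-fold lower, against 19% of all measured genes; none was 1.5-fold apart. The median stayed between -0.26 and -0.19 under the alternatives that were run. Ndufaf7, a methyltransferase, had 3629 and 2723, 1.33-fold lower. Ndufaf8 had 14822 and 11699, 1.27-fold lower, but its dimmer probe set had 0.30, and their mean was -0.02. Ndufaf6 had 4697 and 3909 (log2 ratio -0.27). The remaining lower factors were Ndufaf2 (-0.23), Ndufaf5 (-0.20), Ndufaf3 (-0.19) and Ndufaf4 (-0.17, with another probe set at 0.06). Ndufaf1, a scaffold of early assembly steps, was the exception, with 5687 and 6824 and a log2 ratio of 0.26. Signals of the factors with DMSO ran from 3629 to 16331. Of the 3864 measured genes in that range 59.1% were lower, with a median log2 ratio of -0.05, a background added after the values were seen. Every single difference among the factors except those of Ndufaf7 and Ndufaf8 was near or within 0.26, the probe set error over all genes.

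Repeated probe sets show how far single values can be read. Several probe sets exceeded the floor on each array in 37 of the 73 genes. In 28 of them these differed by less than 0.3 on the log2 scale, no gene exceeded 1, and the widest range was 0.64. In 16 genes the probe sets lay on both sides of 0. In some genes a dim probe set stood apart from a bright one. Ndufb8 had 47212 and 46299 by the bright one (-0.03) and 1126 and 774 by the dim one (-0.54). Ndufs4 had 20249 and 22634 (0.16) and 1440 and 1032 (-0.48). Ndufs8 and Cox6a1 differed between bright probe sets too, and Cox6a1 had 0.06 and 0.42.

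**Figure D3:**
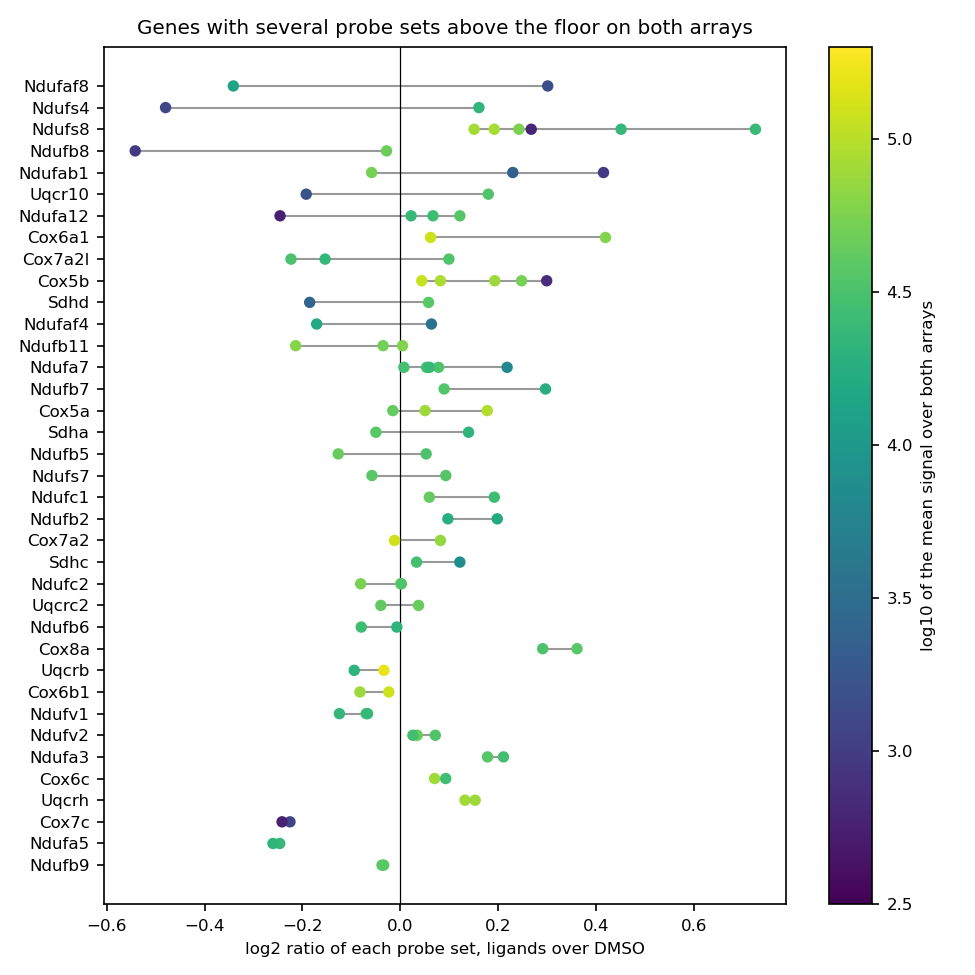
Log2 ratio (ligands over DMSO, x axis) of every probe set that exceeded the floor on each array, for the 37 genes with several, ordered by their range; grey lines join the probe sets of a gene and colour gives log10 of the mean signal. Genes at the bottom have nearly identical ratios, and the widest ranges, 0.64 for Ndufaf8 and Ndufs4, join a bright and a dim probe set.

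ATP synthase, the enzyme that uses the proton gradient, had 18 of 18 genes measured. Of these, 12 were above a ratio of 1, where 46.1% of all measured genes were, and the median log2 ratio was 0.09. The alternative scalings were not run for this list. Its highest gene was Atp5e, the epsilon subunit (31412 and 48193, 1.53-fold higher by its only probe set). Its lowest was Atpif1, the inhibitor of the enzyme (-0.09). Cytochrome c and cytochrome c1, Cycs and Cyc1, had -0.07 and -0.04. The list of carriers and entry enzymes held Cycs, Cyc1, genes that feed electrons to ubiquinone, and genes of ubiquinone synthesis or handling. Over its 18 measured genes the median was -0.04. Coq10a was highest (0.57) and Gpd2, the mitochondrial glycerol-3-phosphate dehydrogenase, lowest (-0.29). ND5, the only subunit encoded by mitochondrial DNA with a probe set here, had 115000 and 118713 (0.05).

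Of 26 measured assembly factors of complexes II, III and IV, 14 were lower and 12 higher, a share close to that of all measured genes (46.1% higher). The median log2 ratio was -0.01, Coa3 was highest (0.53) and Coa6 lowest (-0.44). Assembly factors of complex I outside the symbol rule had a median of -0.04 over 7 genes, with Tmem126b highest (939 and 1707, 1.82-fold higher by its only probe set) and Ecsit lowest (-0.26). Of 16 measured regulators of mitochondrial biogenesis 10 were lower and 6 higher (46.1% of all measured genes were higher), with a median of -0.19. At 1.2-fold 5 were lower and 2 higher, where 19% and 18.1% of all measured genes were. Polrmt, the mitochondrial RNA polymerase, was lowest (-0.43, its other probe set -0.11) and Gabpb1, a subunit of an ETS factor, highest (0.37, its other probe set -0.29). Tfam (-0.17 and 0.62) and Nrf1 (from -0.53 to 0.12) also had probe sets on both sides of 0. Ppargc1a, the coactivator best known for inducing respiratory genes, was below the floor on both arrays. The difference between these lists and the subunits was not tested.

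**Figure D4:**
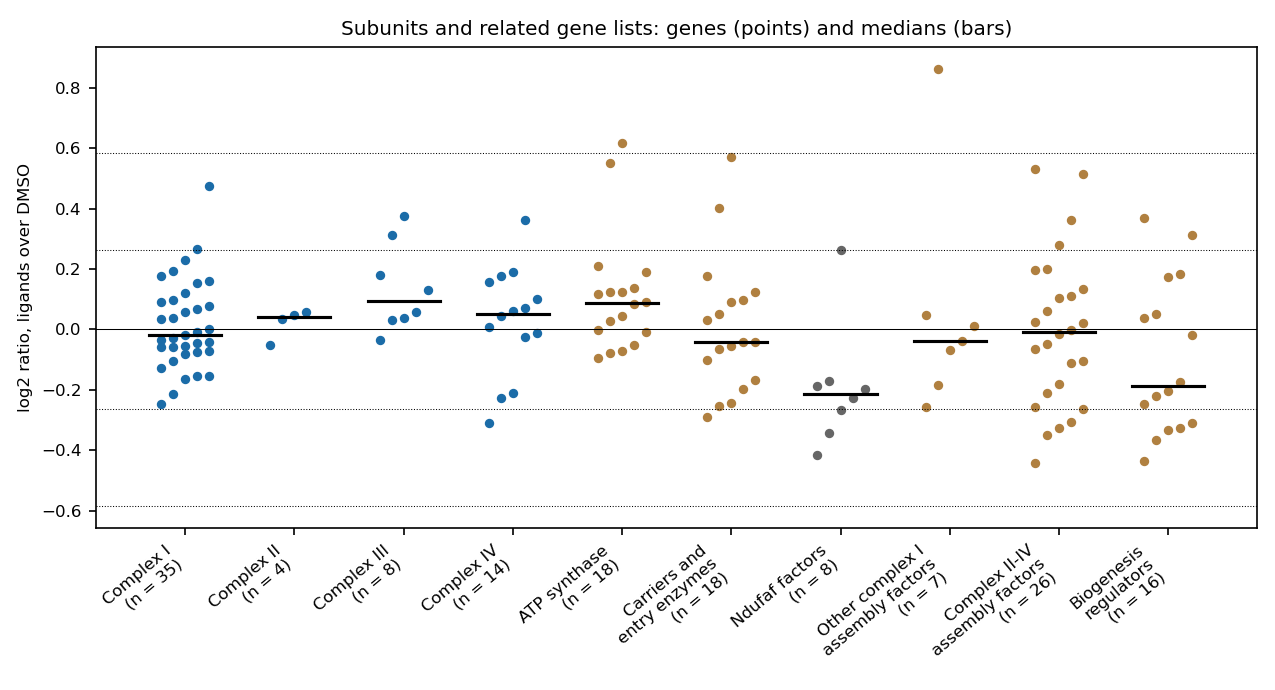
Log2 ratio (ligands over DMSO, y axis) of each measured gene in the 4 complexes, the Ndufaf factors and the related lists, with n under each name; points are genes, bars are medians, and dotted lines mark 1.2-fold and 1.5-fold. The medians of complexes I to IV lie between -0.02 and 0.10, and those of the Ndufaf factors and the biogenesis regulators at -0.21 and -0.19.

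Nuclear genes of the respiratory chain are known for promoters with sites of NRF1 and of ETS factors such as GABPA. Promoter windows from RefSeq (GRCm38.p6), 250 bases before to 50 after a gene's start, were matched to 59 of the 73 genes. 4 patterns were searched on both strands with no mismatch: the NRF1 core GCGCATGCG, the ETS core CCGGAAG, the ERR site TCAAGGTCA, and the DR4 element of LXR and RXR, taken as AGGTCA repeated on the same strand after 4 bases. A match is a description of letters, not a measured site. The stretches below, 250 bases before to 10 after the start, are those of the 4 genes whose NRF1 core begins before the start. They are shown for the position of the core, and no link between the core and the ratios was tested. Capitals mark the NRF1 core and, in Cox6a1 and Uqcr11, also the ETS core on either strand. In GRCm38.p6 they lie at chr10:80406812-80407071 (minus strand) for Uqcr11, chr5:115348949-115349208 (minus strand) for Cox6a1, chr2:36049329-36049588 (minus strand) for Ndufa8 and chr4:24897833-24898092 (plus strand) for Ndufaf4.
Uqcr11: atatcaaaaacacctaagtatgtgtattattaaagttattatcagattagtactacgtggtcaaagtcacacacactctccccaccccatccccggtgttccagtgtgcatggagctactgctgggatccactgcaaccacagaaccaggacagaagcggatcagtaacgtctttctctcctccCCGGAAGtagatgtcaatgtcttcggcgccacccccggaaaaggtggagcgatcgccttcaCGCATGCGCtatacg
Cox6a1: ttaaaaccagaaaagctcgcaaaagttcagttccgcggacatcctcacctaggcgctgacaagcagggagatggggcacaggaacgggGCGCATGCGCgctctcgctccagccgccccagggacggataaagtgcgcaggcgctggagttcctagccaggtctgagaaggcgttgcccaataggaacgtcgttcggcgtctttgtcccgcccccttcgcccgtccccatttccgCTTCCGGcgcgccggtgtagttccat
Ndufa8: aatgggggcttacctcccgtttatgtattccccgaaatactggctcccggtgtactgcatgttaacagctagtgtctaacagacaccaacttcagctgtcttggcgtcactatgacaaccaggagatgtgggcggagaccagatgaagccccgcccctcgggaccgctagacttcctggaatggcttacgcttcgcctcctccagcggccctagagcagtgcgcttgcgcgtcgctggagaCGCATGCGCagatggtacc
Ndufaf4: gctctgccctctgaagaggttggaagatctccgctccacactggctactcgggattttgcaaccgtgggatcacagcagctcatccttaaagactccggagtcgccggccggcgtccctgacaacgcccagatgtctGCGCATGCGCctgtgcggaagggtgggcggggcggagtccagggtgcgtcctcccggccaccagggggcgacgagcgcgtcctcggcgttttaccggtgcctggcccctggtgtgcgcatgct

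In Cox6a1 and Ndufaf4 the core matched on both strands with an offset of 1 base, so 10 bases are in capitals. The core began 5 bases before the start in Uqcr11, 9 in Ndufa8, 113 in Ndufaf4 and 162 in Cox6a1. The log2 ratios of these genes were 0.37 for Uqcr11, 0.06 for Cox6a1, 0.04 for Ndufa8 and -0.17 for Ndufaf4. Further probe sets had 0.42 for Cox6a1 and 0.06 for Ndufaf4. Matches after the start stood in Uqcrc1 (0.31) and Ndufaf5 (-0.20).

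Among the 59 genes 6 held the NRF1 core (10.2%), against 4.65% of the 8101 measured genes with a window and 1.95% of the 27025 genes in the table. Of the 52 subunits among the 59 genes 4 held it (7.69%), and of the 7 Ndufaf factors 2 did. The ETS core was in 13 of the 59, against 22.4% and 9.93%. The ERR site was in Sdhd alone (1.69%), against 0.346% and 0.466%. The DR4 letters were in none of the 59, in no measured gene and in 4 genes of the table, so this exact pattern is rare in such short windows and its absence says nothing of LXR binding. Overlap with other motifs was not searched. The 17 measured genes with an NRF1 or ETS core, Ndufaf factors included, had a median log2 ratio of 0.06 and a range from -0.34 to 0.37. The 38 with neither, Ndufaf factors included, had -0.01 and a range from -0.41 to 0.48. These ranges overlap, and no difference was tested.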

How the data were processed

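RNA from 2 cultures was hybridised to 1 Affymetrix array each. The deposited values are linear intensities, 1 per probe set, made by the authors with MAS5 (version and genome build not given in the sources used here), per the submitters' processing notes. Both arrays have the same trimmed mean, so a change shared by most transcripts would not show. The number of arrays limits the precision.

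Of 45101 probe sets, 34945 had 1 symbol in the platform annotation, 932 had several, 9160 had none and 64 were controls. Only probe sets with 1 symbol were used. The platform symbols of all 73 members matched the current RefSeq symbols. Log2 ratios were taken after flooring signals at the 50th percentile (406.5). Probe sets ending in _s_at or _x_at can detect related transcripts, and many respiratory chain genes have processed pseudogenes. No p-value was computed. Named genes were the 3 highest and 3 lowest of each complex, the Sdh genes, the core subunits of complex I, the isoforms of complex IV, and the extremes of each related list. Other genes quoted were chosen after their values were seen. The members and lists were chosen with earlier results of these data known. The ratio procedure was tested on simulated data without noise, in which large known changes were put into a copy of the DMSO values. That checked the arithmetic and says nothing of the error in differences as small as those described here. Alternatives changed the floor, the scaling, the probe sets and the genes counted. Python 3.11.15, numpy 2.4.6 and pandas 2.3.3 were used.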

Additional observations from a re-analysis of the deposited data

How the results depend on the processing

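No paired analysis was possible because each condition has 1 array. At the 50th percentile floor no subunit's floored ratio reached 1.5-fold, and the counts moved where dim signals entered. With the floor at the 25th percentile, 1 subunit was at least 2-fold higher, 2 at least 1.5-fold higher and 1 lower, and 8 at least 1.2-fold higher and 2 lower. With log2(signal + 32) and no floor these were 2 higher and 1 lower at 2-fold, 2 and 2 at 1.5-fold, and 8 and 3 at 1.2-fold. With the floor at the median of all probe sets, chosen after seeing the data, 1 was higher and 1 lower at 1.5-fold, and 2 were lower at 1.2-fold. Cox4i2 and Ndufa4l2, each above the floor on 1 array only, had log2 ratios of 2.82 and -0.88 without a floor. At 1.2-fold, 2 subunits were lower with quantile normalization or the mean over probe sets, and 0 with the floor at the 75th percentile or among genes above the 90th percentile. Quantile normalization turned the median of complex IV to -0.045 and of all subunits to -0.021, and centring turned that of complex I to 0.01. Of the Ndufaf factors, 1 was at least 1.2-fold higher with quantile normalization or centring. Above the 90th percentile only 2 factors remained, both lower, 1 of them at least 1.2-fold. Of 39 named members 9 had both signs among up to 11 alternatives, and 2 reached 1.5-fold under any. Signals near background limit the dim isoforms.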
